A study of Mus musculus with 12 samples.

Results

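The Hox clusters A to D hold the homeobox genes that give cells of the body axis their position along it, and all 39 of their genes that the deposited table names (symbols Hoxa, Hoxb, Hoxc or Hoxd with a number) enter the counts and sums given here, out of 35856 rows. HoxA has 11 genes, HoxB 10, HoxC 9 and HoxD 9. The study sequenced polyadenylated RNA of cardiac precursors, cells that are becoming heart muscle, differentiated from C57BL/6 mouse embryonic stem cells through 48 h as embryoid bodies, 43 h as reaggregates and 32 h as a monolayer. The cells came from 3 lines. Each line has an auxin-inducible degron (AID) on another subunit of Polycomb repressive complex 2 (PRC2), and all lines, untreated cells included, also carry Tir1, the plant protein through which auxin sends a tagged protein to degradation. The 6 groups were SUZ12-AID with auxin and SUZ12-AID untreated, MTF2-AID with auxin and MTF2-AID untreated, and AID-JARID2 with auxin and AID-JARID2 untreated, with 2 libraries each. Auxin was 50 µM indole-3-acetic acid, and when it was added is not stated in the labels. Each subunit was tagged in 1 line and no line without a tag was given auxin, so an effect of the subunit cannot be told apart from one of the line or of auxin itself. The degron acts on the protein, so the mRNA of the tagged gene does not check the depletion.

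Hox genes of a cluster lie in the order of their numbers, and along the body axis and in time the low numbers come on before the high ones. Genes with the same number in different clusters, called paralogs, descend from 1 ancestral gene and often act together. Hox proteins bind DNA with partners of the TALE class (Pbx, Meis and Pknox proteins), and retinoic acid and the caudal proteins Cdx1, Cdx2 and Cdx4 are known activators of the clusters. PRC2 places methyl groups on histone H3 at the clusters of cells that do not express them. SUZ12 is a core subunit of the complex, and MTF2, which binds DNA rich in CG dinucleotides, and JARID2 are accessory subunits of its different forms. Loss of core PRC2 in mouse embryos is known to raise Hox genes outside their normal domains. In the embryo, low-numbered genes such as Hoxb1 mark progenitors of the venous and arterial poles of the heart.

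The clusters lie on chromosome 6 (HoxA, 52155590 to 52260880, minus strand), chromosome 11 (HoxB, 96194316 to 96368256, plus strand), chromosome 15 (HoxC, 102921103 to 103036852, plus strand) and chromosome 2 (HoxD, 74668310 to 74765142, plus strand) of mm10, by the GENCODE vM21 annotation. A promoter window of 300 bases, 250 before the RefSeq start and 50 from it, was held for 22 of the 39 genes, in 24 windows of build GRCm38.p6. The Hox windows had a median of 14.5 CG dinucleotides and 57.7% G or C, against 7 and 52.7% over all 32851 windows. The motif TGATNNAT, which PBX-HOX pairs bind, was found on either strand in 4 of 24 Hox windows (16.7%), against 8.85% of all windows. The motif TTTATG, which caudal proteins bind, was found on either strand in 5 of 24 (20.8%), against 11.9%. These motifs can share the bases TG, and the matches shown here did not overlap. A match is a description of letters and not a site.

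The windows of Hoxb1, Hoxb8 and Hoxd4 are shown because they hold such matches and because all 3 genes fell with auxin in AID-JARID2. Capitals mark every match to TGATNNAT or TTTATG on either strand. Hoxb1 (chr11:96365508-96365807, plus strand) has TGATGGAT, whose leftmost base lies 162 bases before the start, and this sequence is known from the mouse Hoxb1 element through which HOX and PBX proteins keep the gene on in the hindbrain. Hoxb8 (chr11:96281655-96281954, plus strand) has TTTATG 157 bases, CATAAA 143 bases and ATTGATCA 11 bases before its start. Hoxd4 (chr2:74721728-74722027, plus strand) has TTTATG 45 bases before its start and another after it, and 4 CG dinucleotides in all.
Hoxb1: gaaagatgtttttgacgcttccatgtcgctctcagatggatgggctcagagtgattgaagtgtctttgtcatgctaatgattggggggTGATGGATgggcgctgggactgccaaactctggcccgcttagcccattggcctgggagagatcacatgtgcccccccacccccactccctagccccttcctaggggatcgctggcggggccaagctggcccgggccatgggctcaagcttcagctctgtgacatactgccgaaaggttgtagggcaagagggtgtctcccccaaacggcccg
Hoxb8: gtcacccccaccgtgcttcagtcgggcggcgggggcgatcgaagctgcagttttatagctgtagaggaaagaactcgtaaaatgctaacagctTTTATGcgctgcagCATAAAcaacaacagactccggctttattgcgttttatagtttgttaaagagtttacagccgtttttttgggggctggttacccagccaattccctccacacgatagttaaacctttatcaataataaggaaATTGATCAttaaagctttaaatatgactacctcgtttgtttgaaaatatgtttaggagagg
Hoxd4: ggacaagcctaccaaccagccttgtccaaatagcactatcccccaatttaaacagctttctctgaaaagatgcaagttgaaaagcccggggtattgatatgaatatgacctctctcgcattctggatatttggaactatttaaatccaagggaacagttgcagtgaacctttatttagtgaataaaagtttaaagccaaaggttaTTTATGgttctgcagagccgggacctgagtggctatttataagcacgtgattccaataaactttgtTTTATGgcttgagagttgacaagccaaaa

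The windows of Hoxd9, Hoxd1 and Hoxa5 are shown for their CG dinucleotides, here in capitals. Hoxd9 (chr2:74697513-74697812, plus strand) has 20 of them and is the Hox gene with the largest fall with auxin in AID-JARID2 on the log2 scale. Hoxd1 (chr2:74762730-74763029, plus strand) has 29, and it fell with auxin in that line but did not pass the test in SUZ12-AID. Hoxa5 (chr6:52204538-52204837, minus strand) also has 29, and it is the Hox gene with the largest rise with auxin in SUZ12-AID.
Hoxd9: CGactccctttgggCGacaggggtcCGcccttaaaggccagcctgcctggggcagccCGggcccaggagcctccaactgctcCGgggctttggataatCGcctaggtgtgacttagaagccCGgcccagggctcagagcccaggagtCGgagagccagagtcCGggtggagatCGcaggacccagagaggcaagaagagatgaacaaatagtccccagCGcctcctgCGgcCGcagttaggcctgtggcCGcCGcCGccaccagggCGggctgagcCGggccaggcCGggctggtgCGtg
Hoxd1: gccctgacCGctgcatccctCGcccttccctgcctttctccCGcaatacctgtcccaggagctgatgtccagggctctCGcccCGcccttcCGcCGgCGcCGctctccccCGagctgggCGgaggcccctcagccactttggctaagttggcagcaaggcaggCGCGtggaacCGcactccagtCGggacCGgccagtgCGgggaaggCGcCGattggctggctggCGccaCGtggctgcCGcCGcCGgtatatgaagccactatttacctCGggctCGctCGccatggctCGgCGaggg
Hoxa5: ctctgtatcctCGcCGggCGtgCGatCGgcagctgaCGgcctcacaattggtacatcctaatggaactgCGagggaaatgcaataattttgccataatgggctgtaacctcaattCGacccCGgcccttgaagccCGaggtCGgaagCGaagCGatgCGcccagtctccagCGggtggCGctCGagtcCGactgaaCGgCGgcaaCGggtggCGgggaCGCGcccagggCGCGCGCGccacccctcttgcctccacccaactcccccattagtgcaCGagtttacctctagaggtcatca

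Expression is given in TPM, a unit scaled for transcript length and library depth, so levels can be compared between genes. The libraries held 10138920 to 17173072 reads, recovered from the steps of the TPM values, and 18964 to 21026 genes above 0. The 39 Hox genes together drew 1262 to 2489 reads in each library, except for 268 and 285 in the auxin-treated AID-JARID2 libraries. Across genes, which do not count as replicates, Pearson's r between the libraries of a group was 0.987 to 0.992, and untreated SUZ12-AID had the widest median difference between its libraries, 0.195 on the log2 scale. Testing was limited to the 15663 genes that reached 1 TPM in 2 or more libraries. That filter kept 24 Hox genes, 4 of HoxA (Hoxa5, Hoxa11 and Hoxa13 among them), 9 of HoxB (Hoxb1 to Hoxb9), 4 of HoxC (Hoxc6, Hoxc8, Hoxc9, Hoxc13) and 7 of HoxD (Hoxd1, Hoxd3, Hoxd4, Hoxd8, Hoxd9, Hoxd10, Hoxd13). The other 15 had between 1 and 101 recovered reads over all libraries, where a gene above 0 in 1 library is given 1 read by the recovery. The highest value among them was 1.32 TPM (Hoxc5). A difference is called where limma gave an adjusted p under 0.05 (Benjamini-Hochberg over all genes tested), and a fold change is on the log2(TPM + 1) scale, which understates changes of low genes.

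In untreated cells of every line, HoxB was the highest cluster and Hoxb2 or Hoxb1 the highest gene. Untreated SUZ12-AID and MTF2-AID led with Hoxb2, at a mean of 61.3 and 30.8 TPM, then Hoxb6 at 17.0 and 24.2 TPM and Hoxd9 at 12.6 and 20.04 TPM. Untreated AID-JARID2 led with Hoxb1 at 76.2 TPM and Hoxb2 at 75.8 TPM, which made up 69.9% of its summed Hox level, then Hoxd9 at 14.2 TPM. HoxC was the lowest cluster in untreated SUZ12-AID and AID-JARID2. The number of Hox genes with a mean of at least 5 TPM was 8 in untreated SUZ12-AID, 11 in untreated MTF2-AID and 7 in untreated AID-JARID2.

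**Figure D1:**
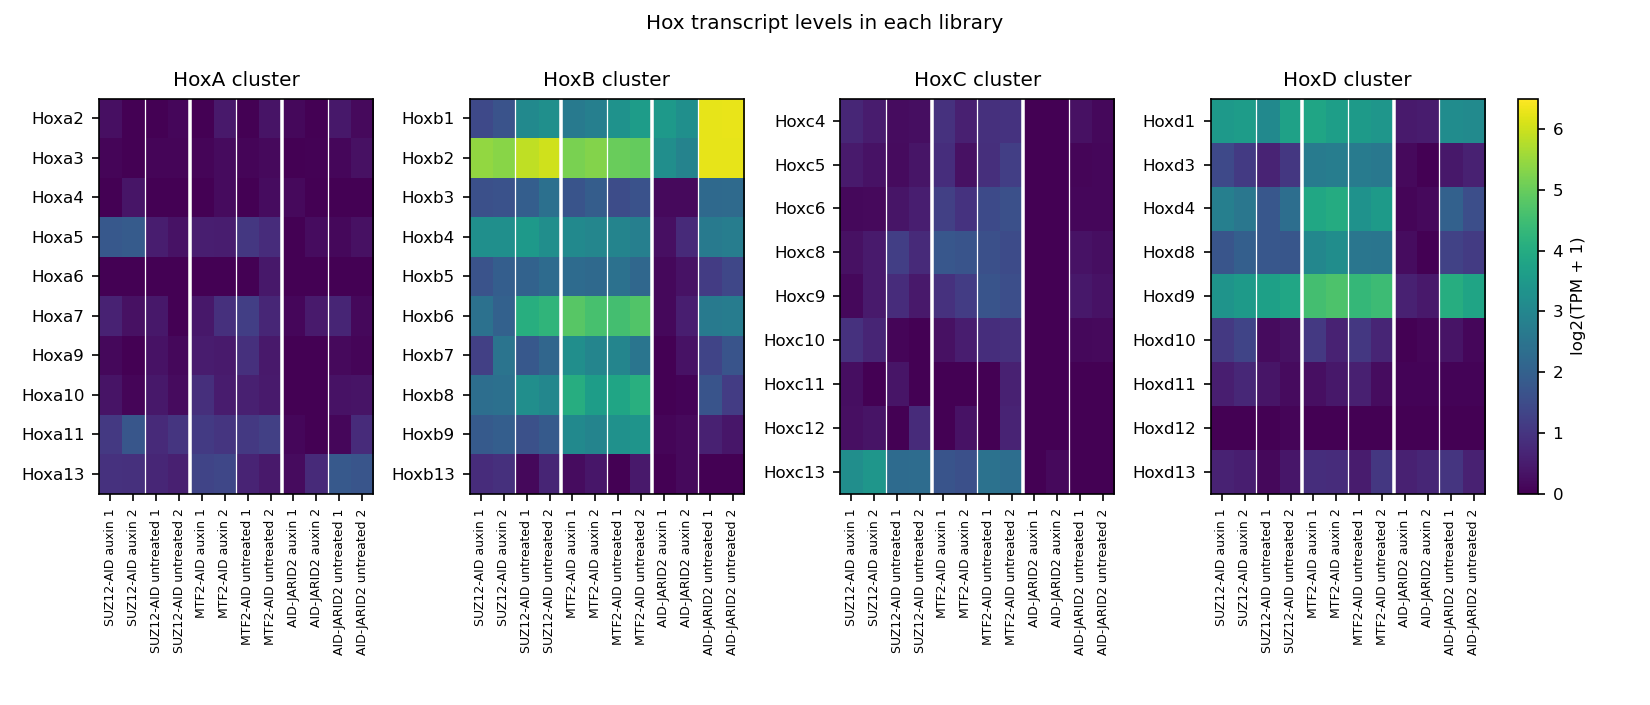
Level of 38 Hox genes (rows, by cluster and number) in each of the 12 libraries (columns), as log2(TPM + 1) by colour, with auxin libraries left of the untreated ones of each line. In the auxin-treated AID-JARID2 columns only Hoxb1 and Hoxb2 had means of at least 1 TPM.

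Summed over all 39 genes, the Hox level differed most between the AID-JARID2 groups. It was 22.5 and 20.8 TPM in auxin-treated AID-JARID2, against 219 and 216 TPM in untreated AID-JARID2. In SUZ12-AID it was 124 and 127 TPM with auxin, against 152 and 172 TPM untreated. In MTF2-AID it was 195 and 192 TPM with auxin, against 177 and 186 TPM untreated. The groups of a line did not overlap in any line, but in MTF2-AID they differed by a factor of only 1.07 between means. These sums are descriptions with no test.

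**Figure D2:**
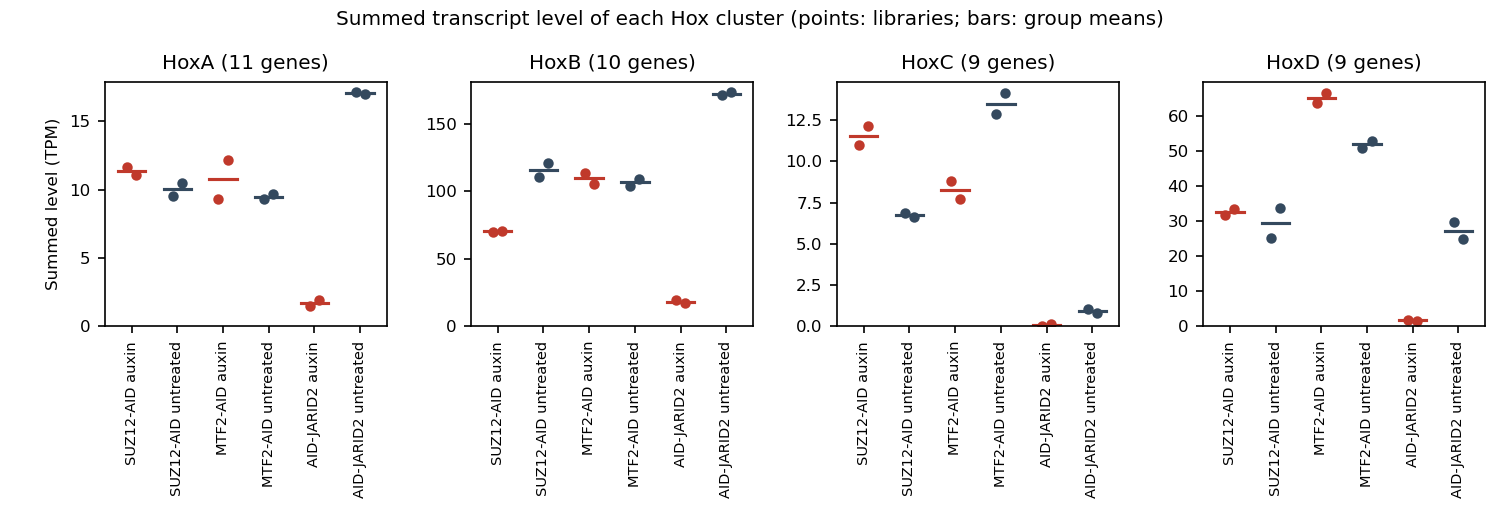
Summed TPM of each cluster in each library (points, red with auxin and dark blue untreated) and the mean of each group (bars). Every cluster of auxin-treated AID-JARID2 lies below all other groups, HoxC of auxin-treated SUZ12-AID lies above its untreated libraries, and each panel has its own vertical scale starting at 0.

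The AID-JARID2 comparison asks what degradation of JARID2 did to the clusters. With auxin, Hox transcripts fell across HoxA, HoxB and HoxD: 14 of the 24 tested genes fell (among them Hoxa13, Hoxb1 to Hoxb8, Hoxd1, Hoxd4, Hoxd8 and Hoxd9) and 0 rose. Over all genes tested, 17% fell and 19.5% rose in this comparison. The median log2 fold change of the tested Hox genes was -1.20, against 0.01 over all genes tested. In 21 of 24 genes both auxin libraries lay below both untreated ones, a pattern that 35% of all genes tested had, and 0 Hox genes had the opposite pattern, which 37.7% of all genes had. The exceptions were Hoxa5, Hoxc13 and Hoxd13. The summed level was 10.0-fold lower in auxin-treated cells for all 39 genes, and 10.1-fold lower for HoxA, 9.46-fold for HoxB and 16.1-fold for HoxD. In the same libraries the summed level of 10 pluripotency markers was 3410 to 3465 TPM with auxin, against 792 to 799 TPM untreated, and that of 10 cardiac markers was 82.1 to 97.1 TPM, against 260 to 270 TPM untreated. Their part in the Hox values was not tested. In bulk RNA, fewer cells that express a gene and less RNA of it per cell cannot be told apart.

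In HoxB, the anterior genes Hoxb1 and Hoxb2, which pattern the hindbrain, carried most of the level and most of the loss in TPM. Hoxb1 had 10.4 and 8.51 TPM in auxin-treated AID-JARID2, against 75.4 and 77.1 TPM in untreated AID-JARID2. Hoxb2 had 8.31 and 6.57 TPM with auxin, against 75.9 and 75.7 TPM untreated. The groups did not overlap for either gene, and the log2 fold changes were -2.89 for Hoxb1 (SE 0.14, adjusted p = 2.2e-07) and -3.19 for Hoxb2 (SE 0.10, adjusted p = 1.4e-08). Hoxb1 and Hoxb2 made up 78.0% of the Hox level with auxin, against 69.9% untreated, and without them the summed level was 13.7-fold lower.

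The middle genes of HoxB were left with few reads. Hoxb3 had 0.122 and 0.123 TPM with auxin, against 3.65 and 3.77 TPM untreated, a log2 fold change of -2.07 (SE 0.18, adjusted p = 1.2e-05) and a ratio of means of 30.3. Hoxb4, which can expand blood stem cells when overexpressed, had 0.208 and 0.714 TPM with auxin, against 5.40 and 5.80 TPM untreated (log2 fold change -2.20, SE 0.17, adjusted p = 6.8e-06). Hoxb5 had 0.0936 and 0.242 TPM with auxin, against 1.22 and 1.59 TPM untreated (log2 fold change -1.04, SE 0.18, adjusted p = 0.0011). In these 3 genes every auxin library was below every untreated one. Hoxb6, which marks lateral plate mesoderm, had 0.105 and 0.450 TPM with auxin, against 5.44 and 5.59 TPM untreated (log2 fold change -2.36, SE 0.17, adjusted p = 4.0e-06).

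Hoxb7 and Hoxb8 were near the limit of detection after auxin, so their ratios are given with an exact 95% interval that covers counting error only. Hoxb7 had 0 and 0.241 TPM (2 reads in all) with auxin, against 1.52 and 2.21 TPM (23 reads) untreated, a ratio of 14.3 (3.52 to 125). Hoxb8, known for its power to keep myeloid progenitors dividing, had 0 and 0.0518 TPM (1 read) with auxin, against 2.22 and 1.24 TPM (51 reads) untreated, a ratio of 63.2 (10.8 to 2546). The log2 fold changes were -1.35 for Hoxb7 (SE 0.35, adjusted p = 0.013) and -1.39 for Hoxb8 (SE 0.20, adjusted p = 0.00045). Hoxb7 lost its call with a pseudocount of 5 TPM (adjusted p up to 0.087 over the alternatives), without untreated AID-JARID2 replicate 2 and without auxin-treated replicate 1. Hoxb9, a gene of the thoracic region, had 0.0657 and 0.113 TPM with auxin, against 0.499 and 0.320 TPM untreated, and did not pass (log2 fold change -0.37, SE 0.15, adjusted p = 0.085). It was called lower in 4 of 8 other settings (adjusted p down to 0.0023), and its ratio over 3 reads with auxin and 11 untreated was 4.55 (1.20 to 25.4). Hoxb13, the last gene of the cluster, was not tested and had 1 read with auxin and 0 untreated.

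In HoxA the called genes included Hoxa13, a gene of the limb tip and hindgut. Hoxa13 had 0.136 and 0.700 TPM with auxin, against 2.50 and 2.31 TPM untreated (log2 fold change -1.29, SE 0.21, adjusted p = 0.00080). Hoxa5 and Hoxa11 did not pass, with log2 fold changes of -0.11 and -0.41.

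HoxD held the Hox gene with the largest fall on the log2 scale. Hoxd9, which patterns limbs and lumbar segments, had 0.507 and 0.364 TPM with auxin, against 15.6 and 12.8 TPM untreated. Its mean was 32.7-fold lower with auxin, at a log2 fold change of -3.40 (SE 0.13, adjusted p = 4.4e-08). Hoxd1, which in mice guides the wiring of pain neurons, had 0.381 and 0.410 TPM with auxin, against 7.96 and 7.65 TPM untreated (log2 fold change -2.66, SE 0.18, adjusted p = 2.5e-06). Both genes had all auxin values under 1 TPM and all untreated values above 7 TPM. Hoxd4, a gene of the hindbrain and neck, had 0.0693 and 0.119 TPM (3 reads) with auxin, against 3.08 and 1.94 TPM (64 reads) untreated, a ratio of 26.4 (8.65 to 132) and a log2 fold change of -1.66 (SE 0.22, adjusted p = 0.00020). Hoxd8 had 0.164 and 0 TPM (2 reads) with auxin, against 1.43 and 1.20 TPM (28 reads) untreated, a ratio of 17.4 (4.38 to 150) and a log2 fold change of -1.10 (SE 0.16, adjusted p = 0.00037). Hoxd3 shares exons with Hoxd4 on the same strand, so the split of their reads is uncertain, and it did not pass (log2 fold change -0.43, adjusted p = 0.11) but was called lower in 3 of 8 other settings (adjusted p down to 0.011). Hoxd10 and Hoxd13 did not pass either, and Hoxd13 had 0.500 and 0.615 TPM with auxin, against 1.01 and 0.522 TPM untreated.

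HoxC was barely expressed in this line with or without auxin. Its sum was 0 and 0.126 TPM (2 reads in all) with auxin, against 1.06 and 0.801 TPM (30 reads) untreated. Of its 4 tested genes 0 passed, and Hoxc6, Hoxc8 and Hoxc9 had 0 reads in both auxin libraries and 9, 5 and 5 reads in the untreated ones. Hoxc13 had 2 reads with auxin and 0 untreated. With limma voom on the recovered reads Hoxc6, Hoxc8 and Hoxc9 were called lower with auxin (adjusted p = 0.0057, 0.024 and 0.028), and with a pseudocount of 0.1 TPM Hoxc8 and Hoxc9 were. Over the whole family, 12 of 39 genes were at 0 in both auxin libraries, against 7 in both untreated ones.

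**Figure D3:**
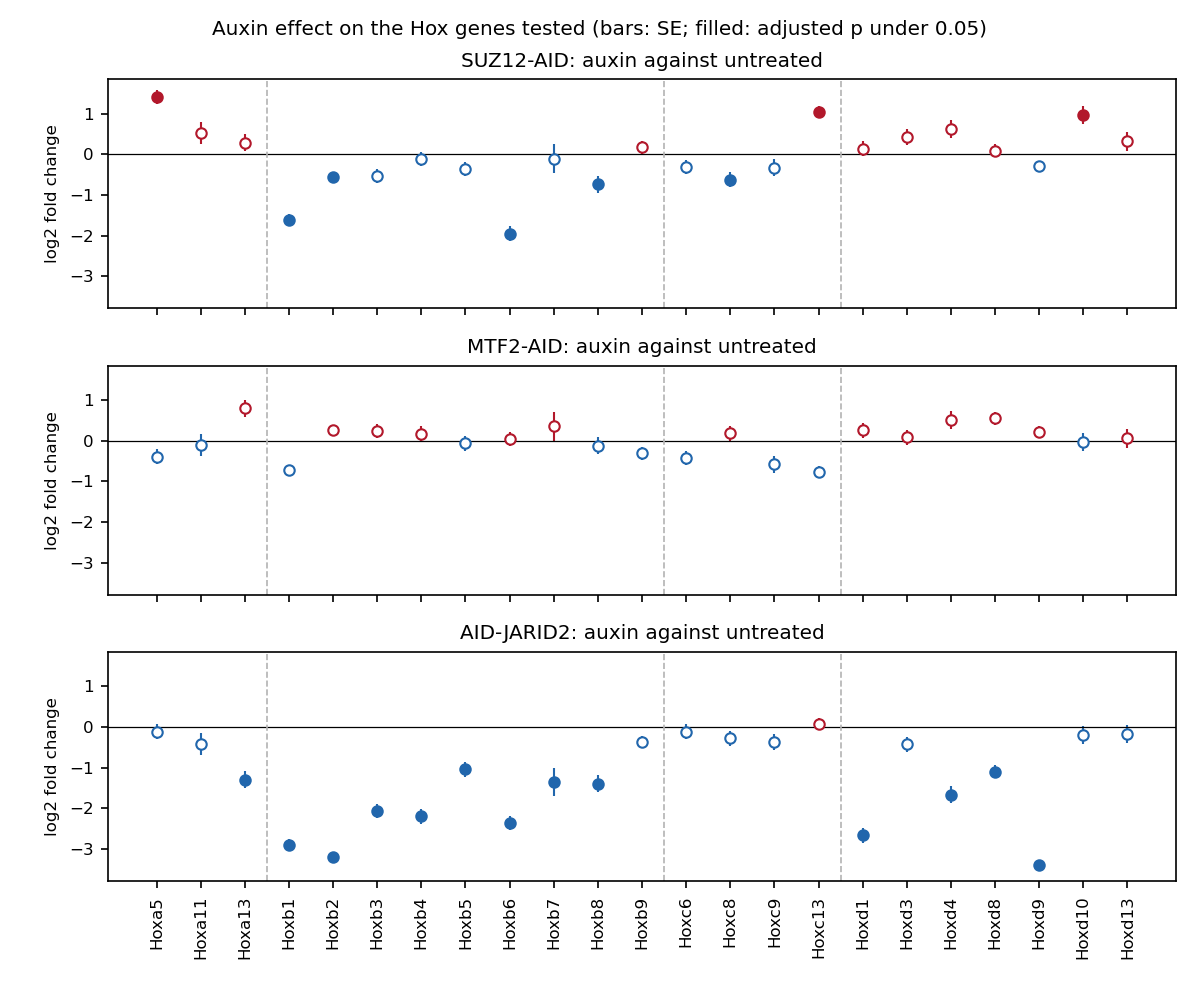
Log2 fold change of auxin against untreated (vertical axis, with SE bars) for 23 tested Hox genes in their cluster order, 1 panel per line, with filled points where the adjusted p was under 0.05 (red higher, blue lower). AID-JARID2 has 13 filled points below 0, SUZ12-AID has 5 below and 3 above, and MTF2-AID has 0.

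By paralog number, the median log2 fold change in AID-JARID2 was lowest at the low-numbered end. All 4 tested genes of numbers 1 and 2 fell (log2 fold change -3.19 to -2.66, median -2.93). Of numbers 3 to 5, 4 of 6 fell (median -1.35), of numbers 6 to 8, 4 of 6 (median -1.23), and of numbers 9 to 13, 2 of 8 (median -0.37). Spearman's rho between paralog number and log2 fold change was 0.59 over the 24 genes and 0.77 over the 9 of HoxB. High-numbered genes also had lower untreated levels, where the log2(TPM + 1) scale understates a change. In ratios of summed TPM the order was not kept: numbers 1 and 2 were 9.55-fold lower, numbers 3 to 5 were 13.5-fold, numbers 6 to 8 were 14.8-fold and numbers 9 to 13 were 11.1-fold lower with auxin. The ratio of numbers 9 to 13 rested mostly on Hoxd9, at a mean of 14.2 of 19.2 TPM untreated and 0.435 of 1.73 TPM with auxin. Singly, numbers 9, 10, 11 and 13 were 28.6-fold, 19.8-fold, 6.00-fold and 2.89-fold lower, and number 12 was at 0. Number 10 had 0 and 1 reads in the auxin libraries. Among the numbers 9 to 13, Hoxd9 and Hoxa13 were the genes that fell.

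**Figure D4:**
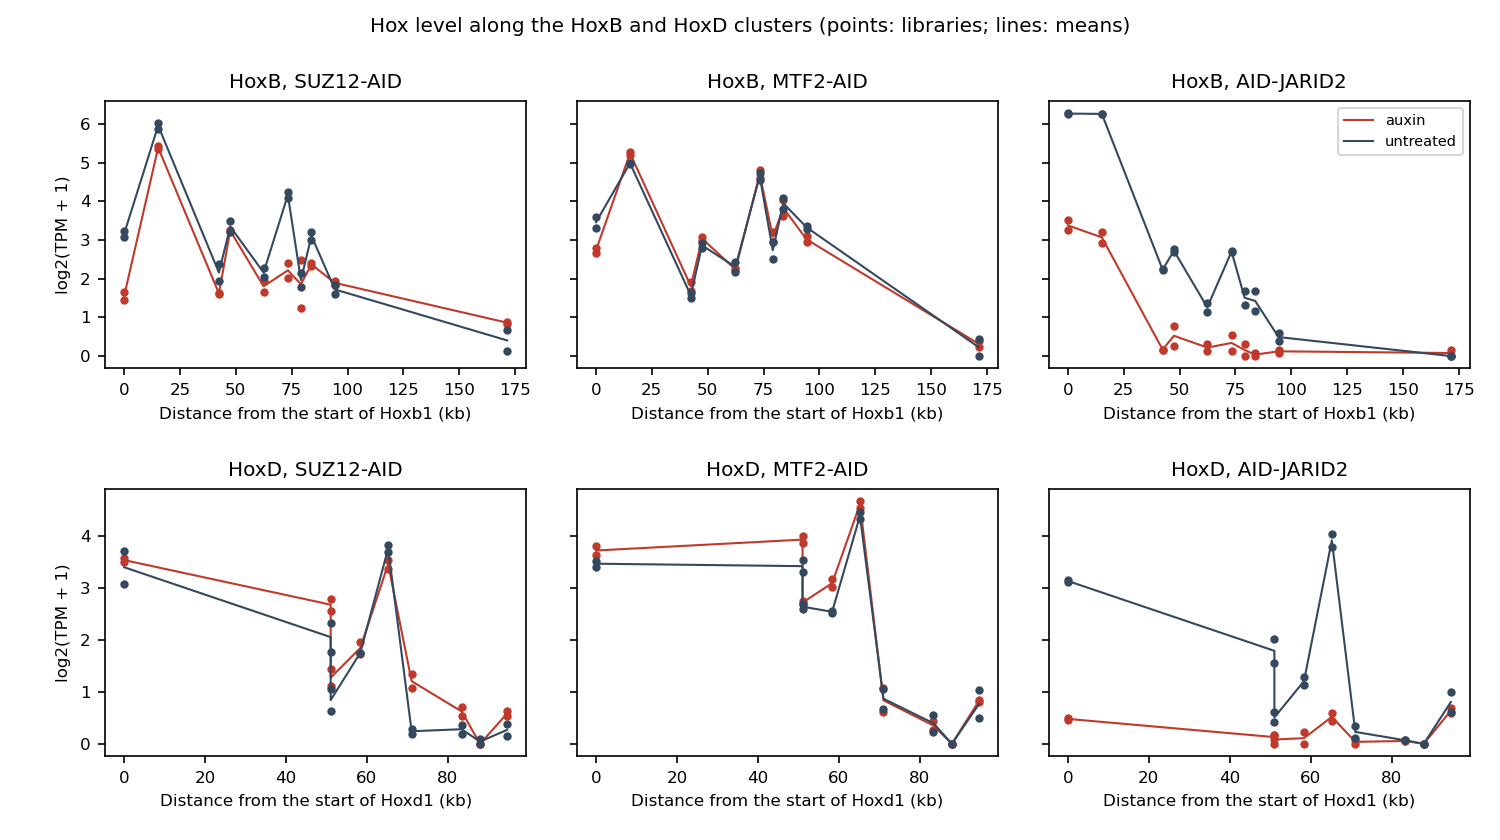
Level as log2(TPM + 1) against the distance from the start of Hoxb1 (upper panels) or Hoxd1 (lower panels) in kb, for each library (points) and as group means (lines), red with auxin and dark blue untreated. In AID-JARID2 the red line is near 0 beyond Hoxb2 in HoxB and along HoxD, and in SUZ12-AID the lines part at Hoxb1 and Hoxb6 in HoxB and at Hoxd10 in HoxD.

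The SUZ12-AID comparison asks what loss of a core PRC2 subunit did to the clusters. Hox genes moved both ways: 5 of the 24 tested genes fell (Hoxb1, Hoxb2, Hoxb6, Hoxb8 and Hoxc8) and 3 rose (Hoxa5, Hoxc13 and Hoxd10). Over all genes tested 19.1% were called, 4.05% lower and 15.1% higher. With quantile normalization the calls over all genes were 1605 higher and 1418 lower, in place of 2362 higher and 635 lower, and those over Hox genes were 3 higher and 9 lower. With median-of-ratios scaling they were 2103 higher and 1548 lower over all genes, and 3 higher and 7 lower over Hox genes. A variance weight per line was lowest in SUZ12-AID (0.500, against 1.29 in MTF2-AID and 1.54 in AID-JARID2). It gave 979 higher and 215 lower over all genes. With only the libraries of this line, 1013 were higher and 131 lower of 14653 tested, so the share called depended on the setting. The median log2 fold change was -0.11 for tested Hox genes, against 0.06 over all genes. The median over all genes was 0.01 without untreated replicate 1. In 10 Hox genes both auxin libraries lay below both untreated ones (15.3% of all genes tested) and in 9 above (34%). In the same libraries the pluripotency markers summed to 310 to 382 TPM with auxin, against 173 to 194 TPM untreated, and the cardiac markers to 548 to 657 TPM, against 447 to 477 TPM untreated, and their part in the Hox values was not tested.

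Within HoxB the size of the change differed from gene to gene, and 4 of 9 genes fell. Hoxb1 had 1.72 and 2.16 TPM in auxin-treated SUZ12-AID, against 7.53 and 8.42 TPM in untreated SUZ12-AID (log2 fold change -1.61, SE 0.14, adjusted p = 0.00011). Hoxb6 had 4.34 and 3.05 TPM with auxin, against 15.9 and 18.1 TPM untreated (log2 fold change -1.95, SE 0.17, adjusted p = 0.00012). The mean was 4.11-fold lower for Hoxb1 and 4.60-fold lower for Hoxb6, with no overlap of libraries. Hoxb2 had 42.4 and 39.6 TPM with auxin, against 57.7 and 64.8 TPM untreated (log2 fold change -0.57, SE 0.10, adjusted p = 0.0040). Hoxb8 had 4.06 and 4.27 TPM with auxin, against 8.24 and 7.03 TPM untreated (log2 fold change -0.74, SE 0.20, adjusted p = 0.030). Hoxb5 and Hoxb7, on either side of Hoxb6, had log2 fold changes of -0.36 (adjusted p = 0.20) and -0.10 (adjusted p = 0.89), and the auxin libraries of Hoxb7 were far apart at 1.35 and 4.61 TPM. Hoxb3, at -0.54, missed the threshold (adjusted p = 0.061) but was called lower in 5 of 9 other settings (adjusted p down to 0.0036), and Hoxb4 and Hoxb9 had -0.11 and 0.17. The HoxB sum was 69.9 and 70.9 TPM with auxin, against 110 and 121 TPM untreated, a 1.64-fold lower mean.

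The genes that rose lay in 3 clusters. Hoxa5, which patterns the lung and the thoracic vertebrae, had 2.46 and 2.64 TPM with auxin, against 0.432 and 0.247 TPM untreated (log2 fold change 1.41, SE 0.18, adjusted p = 0.00070). Hoxc13, a gene of hair and nails and the last of its cluster, had 8.30 and 9.72 TPM with auxin, against 3.83 and 3.88 TPM untreated (log2 fold change 1.04, SE 0.15, adjusted p = 0.0012). Hoxd10, a gene of limbs and lumbar motor neurons, had 1.11 and 1.53 TPM with auxin, against 0.145 and 0.222 TPM untreated (log2 fold change 0.97, SE 0.23, adjusted p = 0.015). None of these genes had overlapping groups, and the means were 7.51-fold, 2.34-fold and 7.18-fold higher with auxin. The low genes rest on few reads, 49 with auxin against 9 untreated for Hoxa5 and 37 against 7 for Hoxd10. Hoxc8, a gene of the brachial region, had 0.217 and 0.380 TPM with auxin, against 1.31 and 0.719 TPM untreated (log2 fold change -0.62, SE 0.19, adjusted p = 0.044). Hoxc13 and Hoxc8 thus moved in opposite directions in 1 cluster, and the HoxC sum was 1.71-fold higher with auxin, at 10.99 and 12.1 TPM, against 6.89 and 6.62 TPM untreated.

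Several of these calls rest on 1 library or setting. Hoxc8 was called in 1 of the 12 runs with a library left out and Hoxb8 in 9 of them, Hoxb8 without its call when SUZ12-AID untreated replicate 1, auxin replicate 1 or auxin replicate 2 was left out. Hoxd10 lost its call without SUZ12-AID untreated replicate 1 and without auxin replicate 2, and with a variance weight per line (adjusted p = 0.13). Hoxc13 lost it with a pseudocount of 0.1 TPM (adjusted p = 0.053), and Hoxb2 with the variance weight (adjusted p = 0.050). Hoxa5, Hoxb1 and Hoxb6 were called in every alternative that tested them. Among genes that did not pass, Hoxd9 had 9.38 and 10.7 TPM with auxin, against 11.9 and 13.3 TPM untreated (log2 fold change -0.30, adjusted p = 0.15), and Hoxd1 had 10.3 and 11.002 TPM, against 7.47 and 12.2 TPM untreated. Hoxd9 was called lower under 2 other scalings (adjusted p = 0.040 with median-of-ratios scaling and 0.016 with quantile normalization).

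By paralog number, the genes that fell in SUZ12-AID had numbers 1, 2, 6 and 8, and those that rose had numbers 5, 10 and 13. The summed level of numbers 6 to 8 was 12.9 and 15.6 TPM with auxin, against 30.9 and 32.1 TPM untreated. That of numbers 9 to 13 was 27.0 and 31.3 TPM with auxin, against 21.5 and 23.9 TPM untreated, and of numbers 10 alone 2.27 and 2.19 TPM, against 0.560 and 0.370 TPM untreated. Of paralogs 13, the sum was 10.6 and 11.9 TPM with auxin, against 4.66 and 5.26 TPM untreated, mostly from Hoxc13. Numbers 6 to 8 thus had a 2.21-fold lower sum and numbers 9 to 13 a 1.28-fold higher sum with auxin, without overlap of libraries. The sum of numbers 1 and 2 was 60.6 and 57.4 TPM with auxin, against 79.5 and 93.9 TPM untreated, and that of numbers 3 to 5 was 23.8 and 23.2 TPM, against 19.99 and 22.2 TPM untreated.

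The MTF2-AID comparison asks the same of MTF2, and no Hox gene passed the test with limma: 0 of 24 were called, where 0.0638% of all genes tested were (0.0447% higher, 0.0192% lower). At an unadjusted p under 0.05 there were 8 of 24, where 9.51% of all genes tested were, and limma voom on recovered reads also called 0. The median log2 fold change was 0.07 for tested Hox genes, against 0.01 over all genes, and the range was -0.77 to 0.80. In 6 Hox genes both auxin libraries lay below both untreated ones (21.8% of all genes tested) and in 11 above (24.1%). A missed threshold does not show that the groups did not differ.

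The Hox genes with the highest levels in MTF2-AID had similar values with and without auxin. Hoxb2 had 35.9 and 38.1 TPM in auxin-treated MTF2-AID, against 31.1 and 30.4 TPM in untreated MTF2-AID (log2 fold change 0.26, SE 0.10). Hoxb6 had 26.9 and 23.3 TPM with auxin, against 22.7 and 25.7 TPM untreated (log2 fold change 0.05, SE 0.17). Hoxd9 had 22.4 and 24.7 TPM with auxin, against 19.1 and 21.0 TPM untreated (log2 fold change 0.22, SE 0.13). Of these the Hoxb6 libraries overlapped and the others did not. Hoxd4 had 13.7 and 15.0 TPM with auxin, against 8.95 and 10.6 TPM untreated (log2 fold change 0.51, SE 0.22), and Hoxb8 had 15.4 and 11.3 TPM, against 13.1 and 16.0 TPM untreated. The genes nearest to the threshold were Hoxb1 and Hoxc13. Hoxb1 had 5.40 and 5.93 TPM with auxin, against 8.97 and 11.2 TPM untreated (log2 fold change -0.73, SE 0.14, adjusted p = 0.096). Hoxc13 had 2.25 and 1.98 TPM with auxin, against 4.45 and 4.14 TPM untreated (log2 fold change -0.77, SE 0.15, adjusted p = 0.096). With a variance weight per line both were called lower with auxin (adjusted p = 0.032 for Hoxb1 and 0.031 for Hoxc13). At the level of clusters, the HoxC sum was 8.82 and 7.73 TPM with auxin, against 12.9 and 14.1 TPM untreated, and the HoxD sum was 63.8 and 66.5 TPM, against 50.9 and 52.9 TPM untreated.

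Set side by side, 4 Hox genes fell in both AID-JARID2 and SUZ12-AID (Hoxb1, Hoxb2, Hoxb6 and Hoxb8), all of them in HoxB. Each line had its own untreated libraries. A further 10 were called in AID-JARID2 alone, 4 in SUZ12-AID alone (Hoxa5, Hoxc8, Hoxc13 and Hoxd10), and 6 in no auxin comparison (Hoxa11, Hoxb9, Hoxc6, Hoxc9, Hoxd3 and Hoxd13). Over all genes tested, 17% fell in AID-JARID2 and 4.05% in SUZ12-AID, and the shares with such joint calls were not computed. The Hoxb8 call in SUZ12-AID was kept in 6 of 10 other settings. Whether a line differs from another was tested on the difference of their auxin effects in the same fit. AID-JARID2 differed from SUZ12-AID in 14 of 24 Hox genes, all with the lower effect in AID-JARID2, where 24% of all genes tested differed (15% lower, 9% higher). Among them were Hoxd9 by -3.10 on the log2 scale (SE 0.18), Hoxd1 by -2.80 (SE 0.26) and Hoxb2 by -2.63 (SE 0.14). Also among them were Hoxa5, Hoxc13 and Hoxd10, which rose in SUZ12-AID and were not called in AID-JARID2, and Hoxd3, called in neither line. Hoxc13 had 0 reads in untreated AID-JARID2 and so could not fall there. Its difference was lost with a pseudocount of 0.1 TPM and with limma voom on recovered reads (adjusted p up to 0.86). Hoxb6 fell in both lines and did not pass in this difference (-0.42, SE 0.24, adjusted p = 0.26), which does not show like falls. Its mean was 19.9-fold lower with auxin in AID-JARID2 and 4.60-fold lower in SUZ12-AID. Its untreated mean was 5.52 TPM in AID-JARID2 and 17.0 TPM in SUZ12-AID, and the log2(TPM + 1) scale understates changes of low genes. Hoxb8 did not pass in this difference either (-0.65, SE 0.29, adjusted p = 0.13).

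AID-JARID2 differed from MTF2-AID in 15 of 24 Hox genes, 14 with the lower effect in AID-JARID2 and Hoxc13 with the higher one (0.85, SE 0.21, adjusted p = 0.014), where 24.3% of all genes tested differed (11.7% lower, 12.6% higher). The Hoxc13 call was lost without MTF2-AID auxin replicate 2 and without AID-JARID2 auxin replicate 2 (adjusted p up to 0.21 over the alternatives). The 14 were the same genes that fell in AID-JARID2, but not all of these calls were firm. The Hoxb7 difference was called in 7 of 9 other settings and the Hoxb5 difference in 8 of 9, and both lost their call in some runs with a library left out. MTF2-AID differed from SUZ12-AID in 5 of 24, where 11.1% of all genes tested did (2% higher, 9.11% lower). The MTF2-AID effect was higher for Hoxb6 (2.00, SE 0.24), Hoxb1 (0.89, SE 0.20) and Hoxb2 (0.82, SE 0.14), and lower for Hoxc13 (-1.81, SE 0.21) and Hoxa5 (-1.80, SE 0.26). The Hoxb1 difference was called in 7 of 10 other settings, and the rest in every other setting that tested them. Hoxc13 thus had auxin effects of 1.04 in SUZ12-AID, -0.77 in MTF2-AID and 0.09 in AID-JARID2, where it was at or near 0 in all libraries. The effects on Hoxa5 were 1.41, -0.39 and -0.11 in the same order of lines. With quantile normalization the calls over all genes for MTF2-AID minus SUZ12-AID were 573 higher and 1049 lower, in place of 313 and 1427, and for AID-JARID2 minus SUZ12-AID 2098 and 2058, in place of 1410 and 2355.

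Untreated lines already differed in their Hox genes, and each is 1 line, so a tag cannot be told apart from a clone. Untreated AID-JARID2 differed most from untreated MTF2-AID: 5 of 24 Hox genes were higher and 14 lower, where 33.4% of all genes tested were called (15.8% higher, 17.6% lower). Among the higher ones were Hoxb1 by 2.81 on the log2 scale (SE 0.14), Hoxb2 by 1.27 (SE 0.10), Hoxa13 by 1.21 (SE 0.21) and Hoxb3 by 0.67 (SE 0.18). The lower ones held all 6 tested genes of numbers 6 to 8, all 3 of number 9 and all 4 of HoxC, with Hoxb9 at -2.84 (SE 0.15), Hoxb8 at -2.52 (SE 0.20), Hoxc13 at -2.40 (SE 0.15), Hoxd3 at -2.13 (SE 0.19), Hoxb6 at -1.95 (SE 0.17), Hoxd4 at -1.63 (SE 0.22) and Hoxc6 at -1.41 (SE 0.18). Hoxb9, for example, had 0.499 and 0.320 TPM in untreated AID-JARID2, against 8.77 and 9.32 TPM in untreated MTF2-AID. The sum of numbers 6 to 8 was 11.5 and 10.6 TPM in untreated AID-JARID2, against 52.5 and 55.99 TPM in untreated MTF2-AID, while that of numbers 1 and 2 was 173 and 173 TPM, against 54.5 and 56.4 TPM.

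Against untreated SUZ12-AID, untreated AID-JARID2 had 4 Hox genes higher (among them Hoxb1 by 3.11, Hoxa13 by 1.14 and Hoxb2 by 0.30) and 8 lower, where 27.6% of all genes tested were called (15.2% higher, 12.4% lower). The largest of the 8 were Hoxc13 at -2.28 (SE 0.15), Hoxb8 at -1.68 (SE 0.20), Hoxb6 at -1.46 (SE 0.17) and Hoxb9 at -1.23 (SE 0.15). The Hoxb2 difference was close to the threshold (adjusted p = 0.049) and was called in 3 of 10 other settings and 3 of 12 runs with a library left out. Untreated MTF2-AID against untreated SUZ12-AID had 8 genes higher and 1 lower, where 8.65% of all genes tested were called (5.5% higher, 3.15% lower). The higher ones were Hoxd3 by 1.80 (SE 0.19), Hoxb9 by 1.60 (SE 0.15), Hoxd4 by 1.37 (SE 0.22), Hoxc6 by 1.06 (SE 0.18), Hoxc9 by 0.98 (SE 0.20), Hoxb8 by 0.84 (SE 0.20), Hoxd8 by 0.79 (SE 0.16) and Hoxd9 by 0.63 (SE 0.13). Of these, Hoxb8 was called in 6 of 10 other settings and Hoxc9 in 7 of 9. The lower gene was Hoxb2 (-0.97, SE 0.10), at 31.1 and 30.4 TPM in untreated MTF2-AID, against 57.7 and 64.8 TPM in untreated SUZ12-AID. For this pair median-of-ratios scaling gave 760 genes higher and 736 lower over the table, in place of 861 and 494, and 8 higher and 3 lower among Hox genes. The order of the untreated lines thus differed between genes: in Hoxb1 AID-JARID2 lay above both other lines, and in Hoxb9, Hoxb8 and Hoxc13 below both.

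Along HoxB, the order of untreated levels followed paralog number most closely in AID-JARID2, with lower levels at higher numbers. Spearman's rho between number and mean TPM over the 10 genes was -0.88 in auxin-treated AID-JARID2 and -0.88 in untreated AID-JARID2. It was -0.15 and -0.70 in auxin-treated and untreated SUZ12-AID, and -0.14 and -0.30 in auxin-treated and untreated MTF2-AID. In HoxD, over 9 genes, it was -0.17 and -0.57 in AID-JARID2, -0.83 and -0.70 in SUZ12-AID, and -0.70 and -0.77 in MTF2-AID, each with auxin and then untreated. In HoxA, over 11 genes, it was between -0.22 and 0.34 in the 6 groups. In HoxC, over 9 genes, it was between -0.58 (untreated AID-JARID2) and 0.55 (auxin-treated AID-JARID2), both in groups with few HoxC reads. These values share libraries and are descriptions.

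Upstream regulators of the clusters were read from a list chosen for their role. It holds the caudal genes but also Polycomb genes such as Ezh2, so its counts are not counts of activators. Over all genes tested, 17% fell and 19.5% rose with auxin in AID-JARID2, and 4.05% fell and 15.1% rose in SUZ12-AID. Of 18 tested upstream regulators, 8 fell and 2 rose with auxin in AID-JARID2, 5 fell and 3 rose in SUZ12-AID, and 0 passed in MTF2-AID. The caudal genes were among them. Cdx2 had a mean of 8.64 TPM in auxin-treated AID-JARID2, against 121 TPM untreated (log2 fold change -3.66, SE 0.12, adjusted p = 1.5e-08), and 85.98 TPM in auxin-treated SUZ12-AID, against 223 TPM untreated (-1.38, SE 0.12, adjusted p = 9.5e-05). Cdx4 had 0.637 TPM in auxin-treated AID-JARID2, against 24.4 TPM untreated (-3.97, SE 0.28), and 0.799 TPM in auxin-treated SUZ12-AID, against 4.13 TPM untreated (-1.49, SE 0.28). Cdx1 fell in AID-JARID2 (-1.71, SE 0.17) and did not pass in SUZ12-AID (0.21, SE 0.17). In MTF2-AID the changes were -0.03 for Cdx2, 0.80 for Cdx4 and 0.18 for Cdx1, and did not pass. The part of these genes in the Hox values was not tested.

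Partners and neighbours were read in the same way, beside 36.5% of all genes tested called in AID-JARID2 and 19.1% in SUZ12-AID. Genes of the retinoic acid pathway and coding genes beside the clusters were called in AID-JARID2 at shares near that of all genes. Of 9 TALE cofactors, 5 fell and 1 rose in AID-JARID2, led by Meis1 at 3.37 TPM with auxin, against 19.3 TPM untreated (log2 fold change -2.23, SE 0.12), and Meis2 (-1.77, SE 0.12), and Pbx4 rose (0.79, SE 0.17). In SUZ12-AID 2 rose, Meis1 (0.59, SE 0.12) and Pbx4 (0.61, SE 0.17), and Pbx3 fell (-0.38, SE 0.07). Of 14 tested genes of the retinoic acid pathway, 4 fell and 2 rose in AID-JARID2, and 1 fell and 5 rose in SUZ12-AID. Aldh1a2, the enzyme that makes retinoic acid in the embryo, had a log2 fold change of -1.64 (SE 0.17) in AID-JARID2 and 0.97 (SE 0.17) in SUZ12-AID, and Rarb, a receptor gene that retinoic acid induces, had -1.55 (SE 0.16) in AID-JARID2. Of 5 tested noncoding RNAs inside the clusters, Hotairm1 and Haglr fell in AID-JARID2, Haglr at 0.512 TPM with auxin, against 6.17 TPM untreated (-2.25, SE 0.20), and 0 passed in the other lines. Of 21 tested coding genes beside the clusters, 6 fell and 1 rose in AID-JARID2 and 4 fell and 4 rose in SUZ12-AID. The largest change among those neighbours in AID-JARID2 was Skap1 (-1.06, SE 0.22), beside HoxB, and Evx1, a homeobox gene beside HoxA, had 97.4 TPM with auxin, against 170 TPM untreated (-0.80, SE 0.14). Of 9 tested homeobox genes related to Hox by origin, 5 fell and 1 rose in AID-JARID2 and 3 fell and 1 rose in SUZ12-AID, caudal genes and Evx1 included.

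Markers of cell states were read in the same libraries as the Hox genes. The shares over all genes tested were 17% lower and 19.5% higher with auxin in AID-JARID2, and 4.05% lower and 15.1% higher in SUZ12-AID. In AID-JARID2 all 10 pluripotency markers rose, with 0 of them at 0 in either group. Pou5f1, a defining gene of pluripotent cells, had a mean of 1600 TPM with auxin, against 326 TPM untreated. Of 9 tested cardiac markers 6 fell in AID-JARID2, and of 7 tested neural markers 5 rose and 1 fell (526 to 544 TPM, against 129 to 137 TPM untreated). Of 9 tested paraxial mesoderm markers 4 fell and 3 rose. Their summed levels were 133 to 142 TPM, against 304 to 307 TPM untreated, and those of endothelial markers, of which 3 of 10 fell and 2 rose, 87.1 to 90.6 TPM, against 214 to 224 TPM untreated. In SUZ12-AID 8 of 10 pluripotency and 5 of 9 tested cardiac markers rose, and 6 of 10 primitive blood markers fell and 1 rose (59.9 to 65.3 TPM, against 85.6 to 111 TPM untreated). Of endothelial markers 8 of 10 rose and 1 fell in SUZ12-AID (324 to 340 TPM, against 242 to 269 TPM untreated), and of neural markers 6 of 7 rose (92.4 to 94.8 TPM, against 53.2 to 58.3 TPM untreated). Of trophoblast markers, a list that holds Cdx2, Eomes and Hand1, 3 of 9 rose and 4 fell in AID-JARID2 (285 to 313 TPM with auxin, against 2150 to 2221 TPM untreated). Cdx2 was a small part of the untreated sum, and the sum does not show that trophoblast cells were present. In SUZ12-AID 6 of the 9 rose and 2 fell, while their sum was lower, at 1228 to 1322 TPM with auxin, against 2606 to 2846 TPM untreated. Of 3 tested endoderm markers 1 rose and 1 fell in AID-JARID2 and 2 rose in SUZ12-AID, and of 10 primitive blood markers 1 rose and 1 fell in AID-JARID2. Of paraxial mesoderm markers 4 of 9 rose and 1 fell in SUZ12-AID. In MTF2-AID 1 marker passed, a primitive blood gene that fell. The cardiac marker sum was above the pluripotency marker sum in both groups of SUZ12-AID and of MTF2-AID, and below it in both groups of AID-JARID2. These sums alone thus do not bear out the cardiac label in AID-JARID2. They compare chosen lists, can rest on few abundant genes such as Pou5f1, and do not settle what the cells were. Untreated AID-JARID2 still had 260 to 270 TPM of cardiac markers. The part of these markers in the Hox values was not tested.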

How the data were processed

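RNA of 12 libraries was sequenced as polyadenylated, strand-specific libraries per the labels' protocols. The authors deposited 1 table of TPM values (35856 rows, 9632 of them at 0 in all libraries). Reads were aligned with STAR 2.6.1d to mm10 per the submitters' processing notes. Which program and annotation gave the TPM, and whether counting used strand, is not given in the sources used here, and reads shared by overlapping genes may be split or lost. Low TPM values are whole multiples of 1 read, which gave back whole read numbers for 100% of values (tolerance 0.001 reads). The smallest whole numbers that matched were taken for each gene, so this share is partly fixed by the search and does not check the recovery. A gene above 0 in 1 library is given 1 read, and read numbers of genes above 0 in few libraries may be too low.

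Genes that reached 1 TPM in 2 or more libraries were tested with limma 3.58.1 (R 4.3.3) on log2(TPM + 1), two-sided, with 1 term per group over all 12 libraries (6 residual and 3.9 prior degrees of freedom), and Benjamini-Hochberg adjustment over 15663 genes at a threshold of 0.05. The fit was tested on simulated data. Sums and order along the clusters were described without a test (Python 3.11.15, pandas 2.3.3, scipy 1.17.1). Intervals cover counting error only. Libraries of a group are biological replicates per the study's design text. The p-values use the spread within groups, pooled for each gene over all groups, and not that of the compared groups alone. Replicate numbers did not pair the libraries. Members enter all counts and sums, but 1 of them is not reported here by name or drawn. The members and lists were chosen with earlier results of these data known. Named were the Hox genes called in an auxin comparison, up to 5 uncalled ones with the highest levels, at most 8 called ones by size for other comparisons, and of other lists the caudal genes and at most 4 called genes each. Further genes named beside these were chosen after their values were seen. Other pseudocounts, filters, scalings, a replicate block, weights per line, only the lines compared, voom on recovered reads and each library left out were tried.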

Additional observations from a re-analysis of the deposited data

Results flagged for a closer look

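The effect of auxin differed between lines in the Hox genes listed here, by the test of the difference of the effects in limma with Benjamini-Hochberg adjustment over all genes, at most 8 genes for each pair of lines by size. Both libraries of each group enter every test, and the values are differences of log2 fold changes.

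In AID-JARID2 minus MTF2-AID the difference was -3.63 for Hoxd9 (adjusted p = 8.1e-07), -3.45 for Hoxb2 (2.4e-07), -2.91 for Hoxd1 (3.2e-05), -2.42 for Hoxb6 (7.5e-05), -2.37 for Hoxb4 (8.7e-05), -2.31 for Hoxb3 (0.00012) and -2.17 for Hoxd4 (0.00059). All these genes fell in AID-JARID2, and none passed in MTF2-AID.

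In AID-JARID2 minus SUZ12-AID the difference was -3.10 for Hoxd9 (adjusted p = 2.8e-06), -2.80 for Hoxd1 (5.1e-05), -2.63 for Hoxb2 (1.7e-06), -2.29 for Hoxd4 (0.00052), -2.09 for Hoxb4 (0.00024), -1.58 for Hoxa13 (0.0035) and -1.53 for Hoxb3 (0.0017). Of these, Hoxb2 fell in both lines.

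In MTF2-AID minus SUZ12-AID the difference was 2.00 for Hoxb6 (adjusted p = 0.0011), -1.81 for Hoxc13 (0.00095), -1.80 for Hoxa5 (0.0024), 0.89 for Hoxb1 (0.019) and 0.82 for Hoxb2 (0.0062). None of these genes passed in MTF2-AID itself, and the Hoxb1 difference was called in 7 of 10 other settings.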

How the results depend on the processing

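Other settings moved counts of called Hox genes, and reversed 0 of the gene results. A mean of at least 5 TPM left 9 Hox genes in the test, so no count could exceed 9 and fewer calls follow from the filter. All 9 were called in AID-JARID2 (14 in the main fit) and in AID-JARID2 minus MTF2-AID (15). The calls were 4 in SUZ12-AID in place of 8, 7 in AID-JARID2 minus SUZ12-AID in place of 14 and 3 in MTF2-AID minus SUZ12-AID in place of 5. They were 4 in untreated MTF2-AID against SUZ12-AID in place of 9, 6 in untreated AID-JARID2 against SUZ12-AID in place of 12 and 7 in untreated AID-JARID2 against MTF2-AID in place of 19. In SUZ12-AID a pseudocount of 0.1 TPM gave 5 and a variance weight per line 4, the weight gave 2 in MTF2-AID in place of 0, and quantile normalization gave 9 in MTF2-AID minus SUZ12-AID. The cause of the changes under these last settings was not tested.

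With each library left out in turn the counts were 5 to 10 in SUZ12-AID (5 without auxin replicate 2), 0 to 0 in MTF2-AID, 13 to 14 in AID-JARID2, 12 to 15 in AID-JARID2 minus SUZ12-AID, 13 to 15 in AID-JARID2 minus MTF2-AID, 4 to 6 in MTF2-AID minus SUZ12-AID, 5 to 9 in untreated MTF2-AID against SUZ12-AID (5 without either untreated MTF2-AID library), 7 to 12 in untreated AID-JARID2 against SUZ12-AID (7 without either untreated AID-JARID2 library) and 16 to 20 in untreated AID-JARID2 against MTF2-AID. A lone library was then assumed to vary like the other groups. Same-numbered libraries of a line correlated at -0.039 to 0.096, so the numbers are only names, and a replicate block gave 14 calls with auxin in AID-JARID2, 8 in SUZ12-AID and 0 in MTF2-AID. With 3 or fewer reads in auxin-treated AID-JARID2, calls of Hoxb9, Hoxd3, Hoxc6, Hoxc8 and Hoxc9 there depended on the setting.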
